A study of Mus musculus with 73 samples.

Results

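The *Klf2* promoter library is a pool of reporter plasmids in which the promoter of *Klf2* is combined with pairs of enhancers or control fragments. Its members were chosen by the promoter name in the deposited table, and comprise 14936 combinations of 110180 over 8 promoter libraries. All of them carry the *Klf2* promoter, a barcoded GFP reporter and 2 fragments downstream of it, each in position 1 or 2 and in plus or minus orientation. The combinations hold 58 enhancer fragments of 9 loci and 20 control sequences, and fall into 477 control-control (CC), 5501 enhancer-control (EC) and 8958 enhancer-enhancer (EE) combinations. The mouse embryonic stem cell (mESC) line E14tg2a, cultured in 2i with LIF, was nucleofected with the library on 3 different days and collected after 24 hours, which gave 6 cDNA samples, since the cDNA of each of the 3 replicates was sequenced in 2 runs. There was no untreated or mutant group, and the CC combinations of the same transfection are the controls. The *Otx2*, *Nanog* and *Ap1m1* promoter libraries, made with the same fragments and transfected into the same cells, are used for comparison. For libraries of too low complexity the paper describes a different cloning step (Gibson assembly), without naming these libraries. The plasmids are episomal and the table holds only reporter activities, so the identity of the cells cannot be checked against marker genes, and a single cell line stands for mESCs.

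*Klf2* encodes a Krüppel-like zinc finger factor of the naive pluripotency network, which is active in mESCs kept in 2i and is turned off when the cells leave this state. Enhancers are stretches of DNA bound by transcription factors that raise the output of a promoter, often together with other enhancers of a cluster. If enhancers act independently of each other on a promoter, their effects may add up. If each multiplies what the promoter already gives, the effects multiply. A massively parallel reporter assay (MPRA) measures this by counting barcodes in the RNA and in the plasmid DNA. The activity of a combination is this ratio, and its boost index is the log2 of its activity over the median activity of the CC combinations in the same replicate.

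The promoter fragment lies on chromosome 8 from 72318658 to 72319107 (mm10), with 404 bp upstream of the RefSeq start of *Klf2* and 46 bp from the start on. The 250 bp before the start (chr8:72318812-72319061, plus strand, RefSeq, GRCm38.p6) are shown because every measured value passes through this sequence, with capitals for matches to GGGCGG (GC box) and to CCACCC (a motif of the Klf family), searched on both strands.
Klf2 promoter: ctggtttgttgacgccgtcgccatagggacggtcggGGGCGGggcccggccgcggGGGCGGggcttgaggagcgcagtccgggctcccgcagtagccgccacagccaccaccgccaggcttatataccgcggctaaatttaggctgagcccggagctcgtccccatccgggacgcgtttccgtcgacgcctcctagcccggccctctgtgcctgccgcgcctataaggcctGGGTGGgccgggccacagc
This window holds 2 GC boxes. At least 2 are found in 16.7% of 32851 RefSeq promoter windows of the same length, and at least 1 in 32.7%. The *Klf2* window holds 1 match to CCACCC, and 28.1% of the promoter windows hold at least 1. Only the letters given were searched, so near forms of a motif, such as TATATA and TATAAG, which the window holds, were not counted. The TATA box letters TATAAA are not in the window, and are found in 12.4% of all windows. Neither are the CCAAT box letters CCAAT (33.8% of windows), the E box CACGTG (6.02%), the ETS motif CCGGAAG (6.91%), the STAT motif TTCNNNGAA (7.02%), the Esrrb motif AAGGTCA (4.08%), the octamer ATGCNAAT (2.86%) or the Sox motif CNTTGTT (12.1%). Of its bases, 71.2% are G or C, against a median of 52.4% over all windows.

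From the *Klf2* locus itself 4 enhancers were included, none of them within a gene body. The centre of Klf2_E058 (chromosome 8, 72316077 to 72316526) lies at -2760 bp from the start of *Klf2*, and that of Klf2_E057 (72311071 to 72311520) at -7766 bp. Klf2_E046 (72271222 to 72271671) is centred at -47616 bp and is closer to *Ap1m1*, at a distance of 13836 bp. Klf2_E061 (72333998 to 72334447) is centred at 15160 bp, with *Eps15l1* as the nearest gene. The fragments on which the results turn most are identified by the primers that amplified them, forward and reverse. They are the strongest enhancer, the strongest of the *Klf2* locus and the weakest.
Pou5f1_E081 forward: attgaatacagacaggactgctggg
Pou5f1_E081 reverse: atgaatcttccgtttcctccactctg
Klf2_E058 forward: cagggccataggttcagacaaag
Klf2_E058 reverse: aaggatgtttcaaactaagcctgacag
Otx2_E110 forward: gtcaaggaccaatcgttaagcactttc
Otx2_E110 reverse: agaagcaagttctgggatggagg
Pou5f1_E081 lies on chromosome 17 from 35503887 to 35504336, 1696 bp from *Pou5f1*, and Otx2_E110 on chromosome 14 from 48654527 to 48654976, 1805 bp from *Otx2*.

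No combination of the *Klf2* library was at 0 in any replicate. Replicates correlated with Pearson's R between 0.853 and 0.894 over all 14936 combinations, and between 0.452 and 0.570 over the CC combinations, whose activities span a smaller range. The median CC activity was 0.435, 0.372 and 0.391 in replicates 1 to 3, so no replicate stood apart in baseline. The authors kept only combinations above a minimum number of barcodes and of plasmid counts per barcode. Numbers of barcodes are not part of the table, and the depth of an activity beyond this minimum is unknown. The 3 transfections used the same plasmid pool. Differences between constructs that persist in all transfections, such as those of their barcodes, are therefore not part of the spread that the limma p-values below measure.

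The controls are DNA of random or shuffled sequence, and their activities spread around the baseline. The 5th and 95th percentiles of the CC boost indices were -1.03 and 0.74. Of the 477 CC combinations 5 exceeded 1, and the highest, of E27-shuffled2 and E46-shuffled1, had boost indices of 2.19, 2.69 and 2.60 in the 3 replicates. This combination lay above the median of every single enhancer. Over the CC combinations that contain it, the median boost index was highest for E46-shuffled2 (0.41) and RandomE5 (0.40), and lowest for E95-shuffled1 (-0.33) and RandomE3 (-0.32). E46-shuffled2 had medians of 0.31, 0.39 and 0.20 in the 3 replicates, and E95-shuffled1 of -0.37, -0.35 and -0.09. The replicates of these 2 controls did not overlap. The central 300 bases of the highest and the lowest control are given to show what the baseline was measured with, with CCACCC in capitals.
E46-shuffled2: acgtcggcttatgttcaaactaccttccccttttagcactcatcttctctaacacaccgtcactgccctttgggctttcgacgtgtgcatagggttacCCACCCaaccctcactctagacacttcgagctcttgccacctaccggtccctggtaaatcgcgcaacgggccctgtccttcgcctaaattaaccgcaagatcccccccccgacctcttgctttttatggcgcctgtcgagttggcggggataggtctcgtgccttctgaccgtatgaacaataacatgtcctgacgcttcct
E95-shuffled1: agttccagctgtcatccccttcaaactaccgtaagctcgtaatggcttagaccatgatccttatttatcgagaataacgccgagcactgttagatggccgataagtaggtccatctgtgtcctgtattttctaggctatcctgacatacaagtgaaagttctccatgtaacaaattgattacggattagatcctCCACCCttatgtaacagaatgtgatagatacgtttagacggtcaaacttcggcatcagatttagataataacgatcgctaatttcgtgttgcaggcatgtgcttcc
A similar order of controls was seen in other constructs. When each EC combination was compared with the median of its enhancer and position, the median deviation per control ranged from -0.42 for E95-shuffled1 to 0.35 for RandomE5. Over the 20 controls it correlated with the CC median with Pearson's R of 0.882 and Spearman's rho of 0.863, as a description across controls that share transfections.

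Adding an enhancer to the *Klf2* promoter raised the median activity, and adding another raised it further. The median boost index of the EC combinations was 0.76, 0.80 and 0.81 in the 3 replicates. That of the EE combinations was 1.34, 1.47 and 1.38. These medians correspond to 1.73-fold and 2.64-fold the baseline, and the replicates of CC, EC and EE did not overlap. EC exceeded CC by 0.79 ± 0.02 (SD, n = 3) and EE exceeded EC by 0.61 ± 0.06, both in 3 of 3 replicates (two-sided exact sign-flip permutation test, p = 0.25 each, the smallest that 3 replicates allow). Of the 5501 EC combinations 603 had a boost index below 0, and of the 8958 EE combinations 129. The highest EC combination reached 2.84 and the highest EE combination 3.17.

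Most of the 58 enhancers raised the activity of the *Klf2* promoter, over a 5.08-fold range from the weakest to the strongest. The boost index of a single enhancer is the median over its 23 to 160 EC combinations. Pou5f1_E081 was the strongest with 2.24, or 4.74-fold the baseline, followed by Nanog_E073 (1.93), Klf2_E058 (1.89), Lefty1_E085 (1.82) and Otx2_E111 (1.82). Their values in the 3 replicates were 2.13, 2.34 and 2.12 for Pou5f1_E081. They were 2.02, 2.00 and 1.76 for Nanog_E073. They were 1.85, 1.98 and 1.78 for Klf2_E058. Pou5f1_E081 lay above the next enhancers in all replicates, whereas Nanog_E073 and Klf2_E058 overlapped. Over the ranked list, only 7 of 57 neighbouring enhancers had replicates that did not overlap, so most neighbouring ranks do not differ beyond the replicates. At the lower end were Lefty1_E087 (0.22), Nodal_E157 (0.17), Pou5f1_E079 (0.13), Pou5f1_E084 (-0.02) and Otx2_E110 (-0.10). Otx2_E110 had -0.19, -0.24 and 0.00 in the 3 replicates. In 15 enhancers the boost index exceeded 1, and in 18 it was below 0.5.

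**Figure D1:**
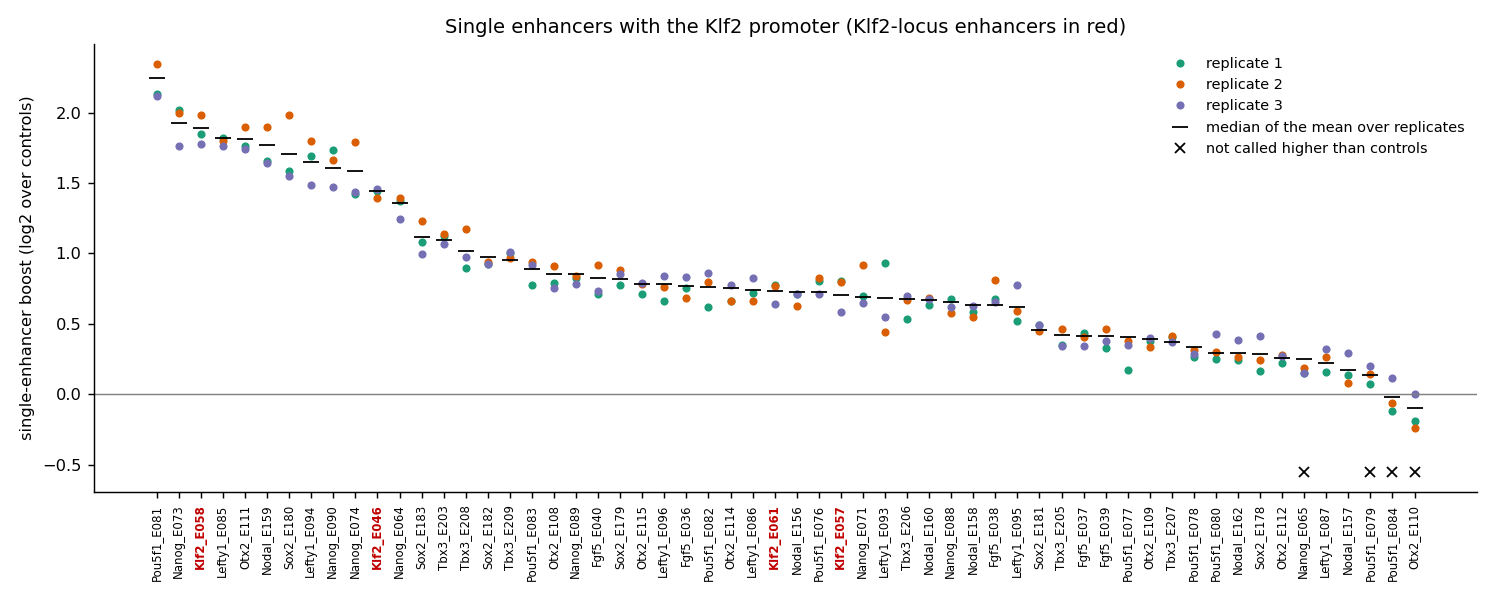
Single-enhancer boost index (log2 over controls, y axis) of the 58 enhancers with the *Klf2* promoter, ranked from high to low. Coloured points are the medians over EC combinations in the 3 replicates, black dashes the median of the mean over replicates, and crosses the 4 enhancers not called higher than controls; values fall from 2.24 for Pou5f1_E081 to -0.10 for Otx2_E110.

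By an exact two-sided rank-sum test of EC against CC combinations at a 1% FDR over all libraries, 54 of 58 enhancers were higher than controls and 0 were lower. Over all 451 enhancer-promoter pairs 87.6% were called higher and 1.77% lower, so the count with *Klf2* is to be read against a series in which most pairs were higher. No enhancer with a boost index below 0 had an unadjusted p under 0.05. The 4 enhancers not called were Nanog_E065 (0.25, FDR = 0.0109), Pou5f1_E079 (0.13, FDR = 0.0307), Pou5f1_E084 (FDR = 0.955) and Otx2_E110 (FDR = 0.0708). Without replicate 3, Otx2_E110 was called lower than controls (-0.21, FDR = 0.00795, rank-sum test). By the same test on all replicates it was lower with *Otx2* (-0.30) and *Nanog* (-0.29), and higher with *Sox2* (0.48) and *Tbx3* (0.26). With *Ap1m1*, *Lefty1* and *Fgf5* it was not called. Nanog_E065 missed the limit narrowly, and limma on the replicates called it (FDR = 0.00681) but did not call Nodal_E157 (FDR = 0.0138). Both tests called 53 enhancers in common, and limma called 54, with 85.1% of all pairs of the series called higher by it. The combinations of an enhancer share this fragment and their controls, and are not independent.

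Of the enhancers of the *Klf2* locus, Klf2_E058 and Klf2_E046 were among the strongest, whereas Klf2_E061 and Klf2_E057 lay near the median over the 58 enhancers, which was 0.73. Klf2_E058 was the 3rd of 58 and Klf2_E046 the 11th, with 1.44, 1.39 and 1.46 in the 3 replicates. Klf2_E061 (0.73) was the 29th and Klf2_E057 (0.70) the 32nd. The median over these 4 enhancers was 1.09, compared with 1.11 for the 8 of *Nanog*, the locus with the highest median, and 0.41 for the 9 of *Pou5f1*, the lowest. The *Pou5f1* locus contains both the strongest enhancer and the next to weakest. Neighbouring fragments could also differ widely. Otx2_E110 and Otx2_E111, a strong enhancer, share 88 bp and differed by 1.92. Otx2_E112 (0.26) overlaps Otx2_E111 by 123 bp and was 1.56 lower. Nodal_E159 (1.77) and Nodal_E160 (0.67) share 100 bp. In contrast, Pou5f1_E078 and Pou5f1_E079, which share 292 bp, differed by 0.21. The bases that Otx2_E111 shares with Otx2_E110 and with Otx2_E112 were thus present in both a strong and a weak fragment.

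The position of an enhancer changed its effect in many cases, but mostly by less than its total range. By limma on the difference between positions in each replicate (5% FDR over all libraries), 22 of 58 enhancers were higher in position 2 and 15 were lower, against 24.3% and 25.9% of all enhancer-promoter pairs. Without replicate 3, 15 were higher and 8 lower. The median absolute difference was 0.19. The largest was that of Fgf5_E037, 0.55 ± 0.07 (SE, FDR = 1.96e-10 by limma), with only 4 combinations in position 1. Its replicates gave 0.36, 0.74 and 0.56. In this fit limma gave all enhancers of the library the same SE, so the SE and FDR do not measure the spread of Fgf5_E037 itself. The difference of Fgf5_E037 was not called by a rank-sum test over combinations (FDR = 0.196). Nodal_E158 was higher in position 2 by 0.41, 0.50 and 0.38 in the 3 replicates. Its boost index was 0.74 in position 2 and 0.29 in position 1. Pou5f1_E084 went the opposite way, by -0.33, -0.53 and -0.47, with boost indices of -0.31 in position 2 and 0.30 in position 1, and so did Otx2_E110, by -0.24, -0.17 and -0.25. Compared with controls in each position separately, Pou5f1_E084 was higher in position 1 (FDR = 0.00206) and lower in position 2 (FDR = 0.00191, rank-sum test). Its value near 0 over all EC combinations thus joins values on either side of the controls. In position 1, 79.8% of the pairs of the series were called higher and 0.907% lower. In position 2, 83.4% were called higher and 2.22% lower. Otx2_E110 was not called in position 1 (0.04, FDR = 0.814) and was lower than controls in position 2 (-0.30, FDR = 0.00984). Of the *Klf2* locus, Klf2_E057 was lower in position 2 by limma, with 0.60 in position 2 and 1.08 in position 1, but was not called by the rank-sum test (FDR = 0.0592). This rank-sum test between positions over combinations, which includes the differences between constructs, called 16 enhancers higher in position 2 and 8 lower, against 16.8% and 15.9% of all pairs.

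Orientation was also tested. With limma, 19 of 58 enhancers were higher in minus orientation and 18 were lower, against 25% and 26.1% of all pairs of the series. Without replicate 2, 11 were higher and 12 lower. Sox2_E181 was higher in minus orientation by 0.54, 0.71 and 0.71 in the 3 replicates, with boost indices of 0.80 in minus and 0.14 in plus orientation. Fgf5_E036 was higher by 0.60, 0.65 and 0.48, with 1.00 in minus and 0.33 in plus. Otx2_E112 was lower in minus orientation by 0.57, 0.58 and 0.46, with 0.04 in minus and 0.55 in plus. In each of the 3 enhancers a weak or absent effect in one orientation stood against a clear effect in the other. The rank-sum test over combinations called 15 higher and 13 lower, against 19.1% and 20% of all pairs, and all 3 enhancers were called by it in the same direction. The median absolute difference between orientations was 0.18, and 5 enhancers differed by at least 0.5.

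Pairs of enhancers were then compared with the activity expected if effects add up, obtained by adding the activities of each enhancer alone in its position and subtracting the baseline. All 8958 EE combinations had an expectation. The median log2 of measured over additive activity was -0.02, 0.01 and -0.01 in the 3 replicates, with a mean of -0.01 ± 0.02 (SD; two-sided exact sign-flip permutation test, p = 0.75). Relative to a multiplicative expectation the medians were -0.23, -0.24 and -0.27. The replicates thus lay on either side of the additive expectation and all below the multiplicative one. Measured and additive activities correlated with Pearson's R of 0.827 on the log2 scale across combinations, which share fragments. Of the EE combinations, 72.4% exceeded the stronger of their enhancers alone, by a median over all of 0.23, and 3.88% were below the weaker.

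**Figure D2:**
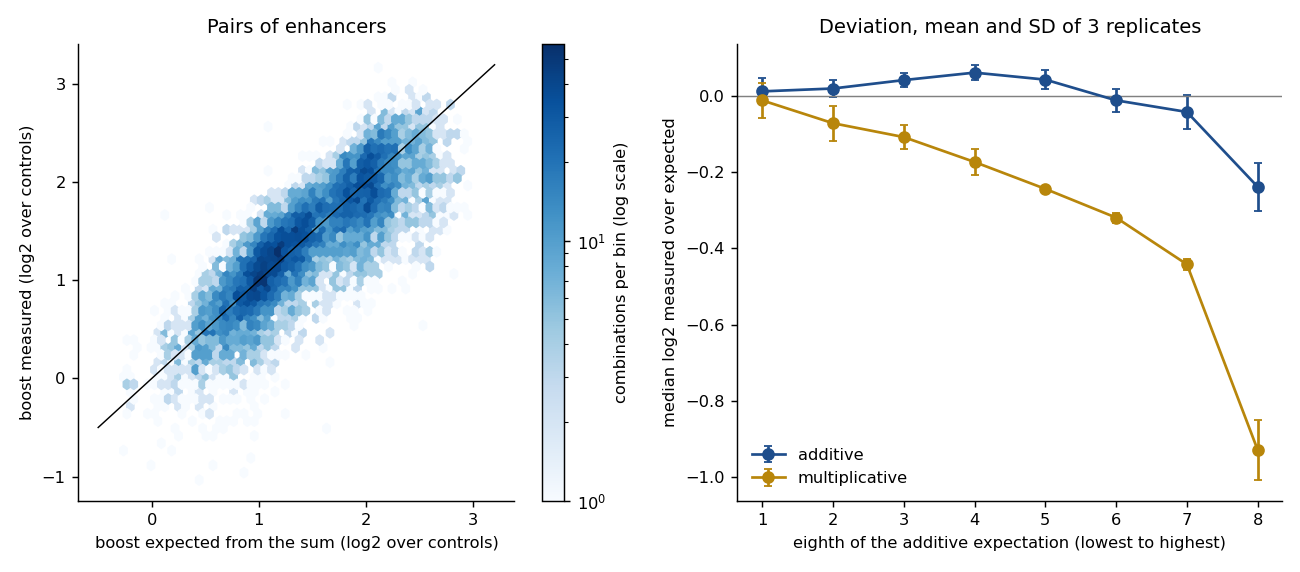
Left, boost index measured (y axis) against that expected from the sum of both enhancers (x axis) for the 8958 EE combinations, coloured by combinations per bin on a log scale, with the line of equality. Right, median log2 measured over expected activity (mean and SD of 3 replicates) by eighth of the additive expectation; the additive model stays near 0 until the highest eighth, where the medians are -0.31, -0.19 and -0.22.

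The agreement with additivity did not extend to the pairs with the highest expected activity. In the lowest 5 eighths of the additive expectation, the medians of measured over expected activity lay between -0.00 and 0.06. In the highest eighth, from an expected boost index of 2.15 to 2.95, they were -0.31, -0.19 and -0.22 in the 3 replicates. Relative to the multiplicative expectation they were -1.02, -0.90 and -0.86 there. By limma on the log2 ratios of the 3 replicates (5% FDR over the EE combinations of all libraries), 1353 combinations were above the additive expectation and 1578 below. These are 15.1% and 17.6%, compared with 24.2% and 14.5% of all EE combinations of the series. The share above was highest for *Tbx3* (40.9%), *Lefty1* (40.8%) and *Sox2* (33.1%). With *Otx2* 13.7% were above and 19.5% below, with *Nanog* 16.7% and 23.8%, and with *Ap1m1* 12.1% and 19.3%. The shares with *Klf2* were thus near those of these promoters. In the highest eighth with *Klf2*, 9.38% were above and 45.0% below. The expectation enters both the eighths and the deviation, so errors of the single-enhancer medians are shared between them. The counts with *Klf2* rest on 3 replicates. Without replicate 3, 792 were above and 1207 below. Without replicate 1 or without replicate 2, limma called 0 in either direction, with 1268 to 1460 above and 1677 to 1734 below at an unadjusted p under 0.05. With single-enhancer activities taken by position and orientation, an alternative chosen after seeing the data, 828 were above and 1175 below.

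To see which pairs depart from the sum, enhancers were grouped by their boost index into 18 weak (below 0.5), 28 middle and 12 strong ones (1.3 or higher), with limits chosen after the values were seen. Sox2_E181 (0.45) and Lefty1_E095 (0.62) lie on either side of the lower limit, and Sox2_E183 (1.12) and Nanog_E064 (1.36) of the upper. Pairs of weak enhancers had median boost indices of 0.48, 0.51 and 0.58 in the 3 replicates, compared with 0.22, 0.27 and 0.31 for weak enhancers with a control. Pairs of middle enhancers had 1.34, 1.41 and 1.36, compared with 0.76, 0.80 and 0.79 with a control. In both groups the replicates of pairs and of single enhancers did not overlap. Middle with strong enhancers gave 1.90, 2.11 and 1.90. Pairs of strong enhancers gave 1.89, 2.21 and 1.99, which overlaps with the former. Both were above strong enhancers with a control, at 1.70, 1.84 and 1.65. Strong enhancers with a weak partner had 1.66, 1.84 and 1.67, which overlaps with the values next to a control. The median log2 of measured over additive activity was 0.09 for pairs of middle enhancers and -0.47 for pairs of strong ones. Of the latter, 60.2% were below the expectation and 2% above by limma, against 17.6% and 15.1% of all EE combinations of the library. Single-enhancer activities of the same EC combinations enter both the grouping and the expectation. Their errors are shared between them, and high errors in the strong group would lower its deviation.

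**Figure D3:**
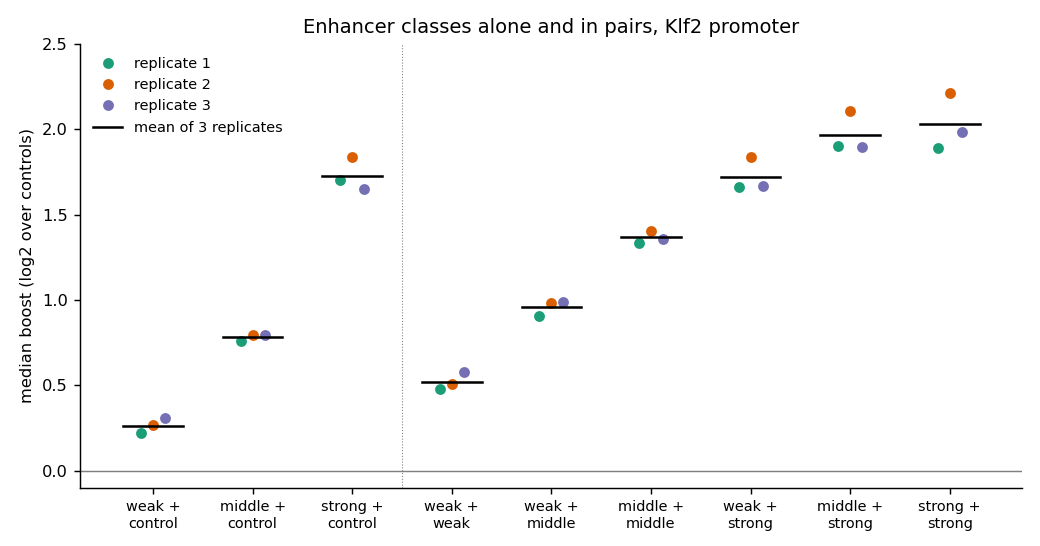
Median boost index (log2 over controls, y axis) of weak, middle and strong enhancers next to a control (left of the dotted line) and in pairs (right), with the *Klf2* promoter. Points are the 3 replicates and lines their mean; pairs of strong enhancers (1.89 to 2.21) overlap with pairs of a middle and a strong enhancer (1.90 to 2.11).

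The strong enhancers did not behave alike. In 65 pairs of the 12 strong enhancers (both orders and all orientations together), the median log2 of measured over additive activity ranged from -1.32 to 0.17 and was below 0 in 58. The lowest was that of Klf2_E058 with Nodal_E159, an enhancer close to *Nodal*, which encodes a ligand of the TGF-beta family. Its boost index was 1.01, 1.57 and 1.32 in the 3 replicates, and all 7 combinations were below the expectation. Klf2_E058 with Nanog_E074 had 1.05, 1.49 and 1.19, with 8 of 8 combinations below. Nanog_E074 with Nodal_E159 had 1.14, 1.52 and 1.41, with 8 of 8 below. Each of these 3 pairs was less active than the weaker of its enhancers alone, since Klf2_E058 alone had 1.89, Nodal_E159 1.77 and Nanog_E074 1.59. Of the 65 pairs, 7 had a median below that of the weaker enhancer and 18 below that of the stronger. The other end was held by Lefty1_E094 (1.65 alone), which lies near *Lefty1*, the gene of a Nodal inhibitor. With Otx2_E111 it gave 2.59, 2.79 and 2.57, and with Klf2_E046 2.36, 2.47 and 2.10. Its median deviation from the sum with strong partners was -0.00, compared with -0.69 for Klf2_E058, -0.71 for Pou5f1_E081, -0.74 for Nodal_E159 and -0.75 for Nanog_E074. These pairs were picked for their deviation, and their values with *Klf2* are a description.

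The libraries of the other promoters were not used to pick these pairs. Klf2_E058 with Nodal_E159 deviated from the sum by -1.28 with the *Otx2* promoter, by -1.28 with *Nanog* and by -0.72 with *Ap1m1*. Klf2_E058 with Nanog_E074 deviated by -1.13, -1.31 and -0.81 with the same promoters. In each of these libraries the 3 replicates of both pairs were below 0. Lefty1_E094 with Otx2_E111 deviated by 0.10 with *Otx2*, by 0.08 with *Nanog* and by 0.04 with *Ap1m1*. Across the strong pairs, the deviations with *Klf2* correlated with those with *Otx2* (Pearson's R 0.929, 63 pairs), *Nanog* (0.924, 65 pairs) and *Ap1m1* (0.712, 64 pairs). The points share fragments, cells and the kind of expectation, so this is a description with no test. With the remaining promoters, Pearson's R was 0.926 for *Sox2* (52 pairs), 0.934 for *Lefty1* (64), 0.934 for *Tbx3* (65) and 0.906 for *Fgf5* (44). The likeness of the order was thus not particular to *Otx2* and *Nanog*. Nor was the level particular to *Klf2*. The median deviation over strong pairs was -0.48 with *Klf2* and below 0 in 58 of 65. It was -0.48 with *Otx2* (55 of 63 below 0), -0.60 with *Nanog* (62 of 65) and -0.40 with *Ap1m1* (61 of 64). With *Sox2* it was -0.54 (42 of 52), with *Tbx3* -0.25 (42 of 65), with *Lefty1* -0.24 (44 of 64) and with *Fgf5* -0.21 (28 of 44). The lowest pairs deviated less with *Ap1m1*.

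**Figure D4:**
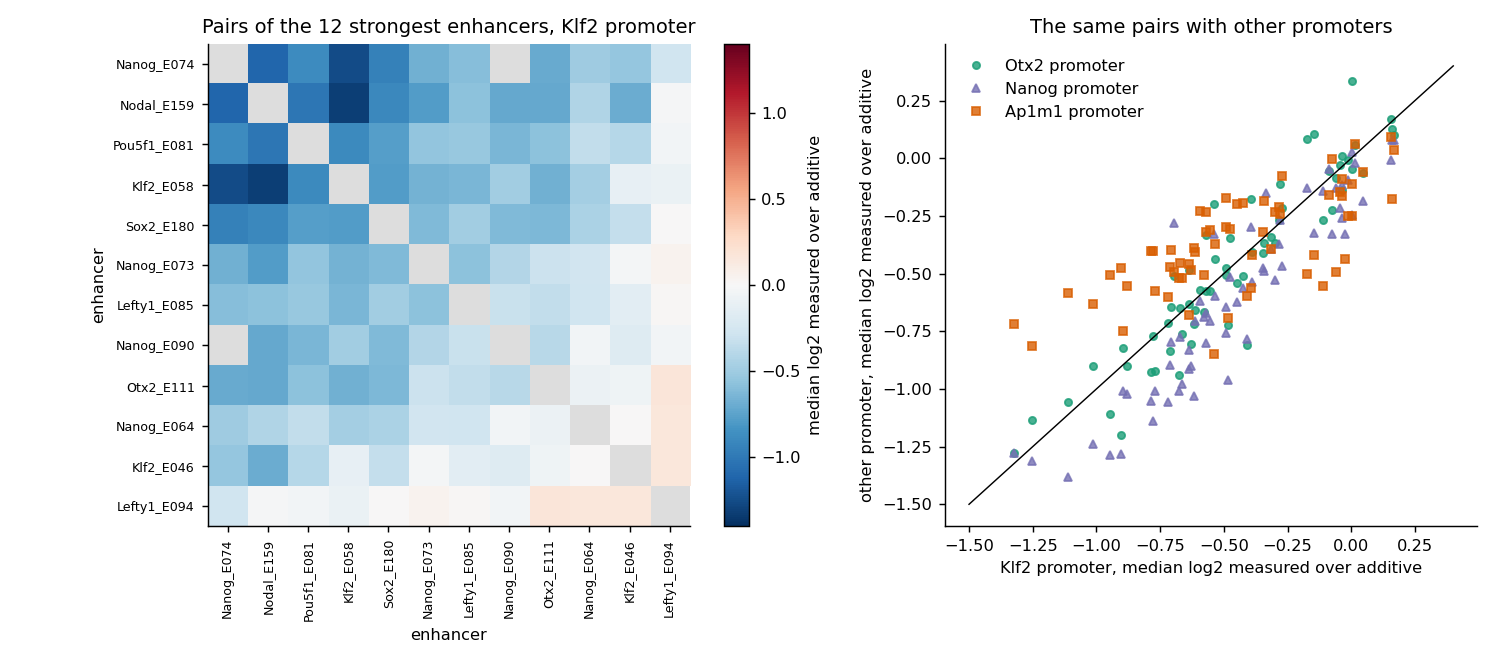
Left, median log2 measured over additive activity for pairs of the 12 strongest enhancers with the *Klf2* promoter (colour scale; grey, same fragment or not measured), from -1.32 for Klf2_E058 with Nodal_E159 to 0.17 for Lefty1_E094 with Otx2_E111. Right, the same measure for these pairs with the *Otx2*, *Nanog* and *Ap1m1* promoters (y axis) against *Klf2* (x axis), each point a pair with at least 2 combinations and the line equality.

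Over all of their partners, Nanog_E074 (-0.32), Pou5f1_E084 (-0.28) and Nodal_E159 (-0.28) had the lowest median log2 of measured over additive activity, and Otx2_E115 (0.23), Otx2_E114 (0.22) and Tbx3_E203 (0.19) the highest. Nanog_E074 was at -0.34, -0.29 and -0.33 in the 3 replicates, and Otx2_E115 at 0.24, 0.25 and 0.20. Otx2_E115 is an enhancer of middle strength (0.78 alone), and 45.6% of its 445 EE combinations were above the additive expectation by limma. Of those of Nanog_E074, 49.5% of 277 were below. Over all EE combinations of the library, 15.1% were above and 17.6% below. Both enhancers were picked for their deviation, so these shares are a description. Without replicate 1 or without replicate 2, limma called 0 EE combinations in either direction. Over the 58 enhancers, the median deviation and the boost index alone correlated weakly (Pearson's R -0.303, Spearman's rho -0.182). This is a description over fragments that share the same combinations.

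The highest pairs combined a strong enhancer with an enhancer of middle strength. Pou5f1_E081 in position 1 with Tbx3_E203 in position 2 had a boost index of 2.90, with 2.76, 3.06 and 2.84 in the 3 replicates over 4 combinations. Klf2_E058 with Tbx3_E203 followed (2.78), and Pou5f1_E081 with Otx2_E114 (2.75). In the 1st and 3rd of these pairs all 4 orientations were above the additive expectation, and in Klf2_E058 with Tbx3_E203 3 of 4 were. None of these 3 pairs thus combined enhancers that were both strong, since Tbx3_E203 had 1.09 alone and Otx2_E114 0.75. The lowest of the 2542 ordered pairs with at least 2 combinations were Nanog_E065 with Pou5f1_E084 (-0.38), Pou5f1_E082 with Otx2_E110 (-0.31) and Pou5f1_E084 with Pou5f1_E079 (-0.27). Nanog_E065 with Pou5f1_E084 had -0.72, -0.65 and -0.11. Pou5f1_E082 with Otx2_E110 had -0.29, -1.08 and 0.39, so its replicates lay on both sides of the controls.

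Pou5f1_E084 and Otx2_E110 were the only 2 enhancers whose partners were, by the median, less active than with a control. With Pou5f1_E084, which lies within the body of *Pou5f1*, the median change of the partner was -0.27, -0.36 and -0.21 in the 3 replicates. It was below 0 in 265 of 374 combinations. With Otx2_E110 it was -0.16, -0.28 and -0.10, and below 0 in 185 of 250. All replicates of both enhancers were below 0, although neither was called lower than controls over all of its EC combinations and all replicates. For comparison, the median change over the 58 enhancers was 0.49 and the highest, for Pou5f1_E081, 1.52. Next to 0 lay Lefty1_E087 (0.00, below 0 in 89 of 178 combinations) and Pou5f1_E079 (0.02, in 97 of 204). These changes were not tested, since Pou5f1_E084 and Otx2_E110 were singled out by them.

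Of the 1656 ordered pairs measured in all 4 orientations, 27 were above the additive expectation in 4 of 4, 74 below in 4 of 4 and 450 were not called in any. In 186 pairs, orientations were called in opposite directions. These counts are a description, since 15.1% of all EE combinations of the library were called above and 17.6% below. They were not compared with other libraries, and limma called 0 without replicate 1 or without replicate 2. The deviations from the sum correlated most between orientations that share the strand of the fragment in position 2, with Pearson's R of 0.616 (1898 pairs) and 0.577 (1830 pairs), and between 0.179 and 0.361 otherwise. With an expectation by position and orientation these values lay between 0.447 and 0.597. The SD of the deviations was 0.35 with the first and 0.32 with the second expectation. The departures of single combinations from additivity thus varied in part with the orientation of the fragments. Pairs in both orders, 1217 in all, correlated with Pearson's R of 0.854 for the boost index and 0.616 for the deviation.

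Enhancers from the *Klf2* locus, the native surroundings of the promoter, were also combined with each other. The 33 such combinations had a median boost index of 1.67, 1.96 and 1.64 in the 3 replicates, against 1.34, 1.47 and 1.38 over all EE combinations. Their deviation from the sum was -0.38, -0.09 and -0.32. The most active ordered pair was Klf2_E058 with Klf2_E046, with 1.92, 2.68 and 2.08, and the least active Klf2_E046 with Klf2_E057, with 1.24, 1.45 and 0.95. The deviation of Klf2_E057 with Klf2_E058 was -0.56 over 2 combinations, both below the expectation by limma. Over all loci, 888 combinations of enhancers from the same locus had a median deviation of -0.01, as did the 8070 of different loci.

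The last question was whether the *Klf2* promoter responds to other enhancers than the promoters of *Otx2*, *Nanog* and the neighbouring *Ap1m1*, over the 57 enhancers measured in all 4 libraries. The boost indices with *Klf2* and *Otx2* were nearly the same, with Pearson's R of 0.979 and a median difference of -0.04. By limma at a 5% FDR, 0 of 57 enhancers were higher (0%) and 0 lower (0%) with *Klf2* than with *Otx2*. At an unadjusted p under 0.05, 2 were higher and 4 lower. The 95% confidence interval of a difference extended by a median of 0.18 to each side, without adjustment for the number of enhancers. With the replicate number as a block (replicate block) and with boost indices divided by their SD over enhancers, 1 enhancer was higher each, and with medians subtracted, an alternative added after seeing the data, 2 were higher and 2 lower. Without replicate 3 the median difference was 0.04. The largest difference was that of Klf2_E046, with 1.44, 1.39 and 1.46 with *Klf2* and 0.87, 1.07 and 1.20 with *Otx2*. It was 0.38 ± 0.09 (SE; 95% confidence interval 0.18 to 0.58; FDR = 0.0702 by limma), and only 5 EC combinations of *Otx2* hold this enhancer.

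With *Nanog*, 0 enhancers were higher (0%) and 10 of 57 lower (17.5%) with *Klf2*, and at an unadjusted p under 0.05 limma gave 1 higher and 23 lower. The median difference was -0.15, and Pearson's R was 0.979. Tbx3_E208 was lowest relative to *Nanog*, with 0.90, 1.17 and 0.97 with *Klf2* and 1.28, 1.65 and 1.48 with *Nanog* (-0.45 ± 0.11, SE, FDR = 0.0144 by limma). Tbx3_E209 differed by -0.42 (FDR = 0.00571) and Sox2_E182 by -0.37 (FDR = 0.0127). The replicates of these 3 enhancers did not overlap between the promoters, which is a description, since they were named for their differences. Tbx3_E208 and Tbx3_E209 come from the locus of *Tbx3* and Sox2_E182 from that of *Sox2*, both genes of pluripotency factors. The calls rested on each of the replicates, since leaving out replicate 1, 2 or 3 left 2, 0 and 2 enhancers, with 13 to 17 at an unadjusted p under 0.05. When the boost indices of each library were divided by their SD over enhancers, 0 were called. When their median over enhancers was subtracted, an alternative added after seeing the data, 5 were higher and 3 lower.

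*Ap1m1*, a housekeeping gene that encodes a clathrin adaptor subunit, lies next to *Klf2*, and of the 3 promoters compared its boost indices were the least like those with *Klf2*. With *Klf2*, 32 of 57 enhancers (56.1%) were higher than with *Ap1m1* and 0 (0%) lower by limma, and at an unadjusted p under 0.05, 33 were higher and 1 lower. With the replicate block, 33 were called higher and 1 lower, and without replicate 3, 25 higher and 1 lower. The median difference was 0.23 and Pearson's R 0.644. Sox2_E180 had 1.59, 1.99 and 1.55 with *Klf2* and -0.03, 0.51 and 0.27 with *Ap1m1*, a difference of 1.46 ± 0.18 (SE, FDR = 8.62e-06 by limma). Nodal_E159 differed by 1.37 and Pou5f1_E081 by 1.29. Their replicates did not overlap between the promoters, again as a description of enhancers named for their differences. Klf2_E058 was also lower with the neighbouring promoter, with 0.57, 0.78 and 0.52, so its difference was 1.25 ± 0.13 (SE, FDR = 4.28e-06 by limma). In contrast, Klf2_E046 was the strongest of all enhancers with *Ap1m1*, with 1.17, 1.15 and 1.03 over 4 EC combinations, and differed by 0.31 (FDR = 0.0105). The differences were thus uneven, and those of Sox2_E180, Nodal_E159, Pou5f1_E081 and Klf2_E058 belong to enhancers that were strong with *Klf2*. Relative to the median of each library, an alternative added after seeing the data, 15 enhancers were higher and 22 lower with *Klf2*, and relative to the SD of each library 15 were higher and 21 lower. The direction of many smaller differences therefore depends on the scale. Without replicate 1, 19 were higher.

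**Figure D5:**
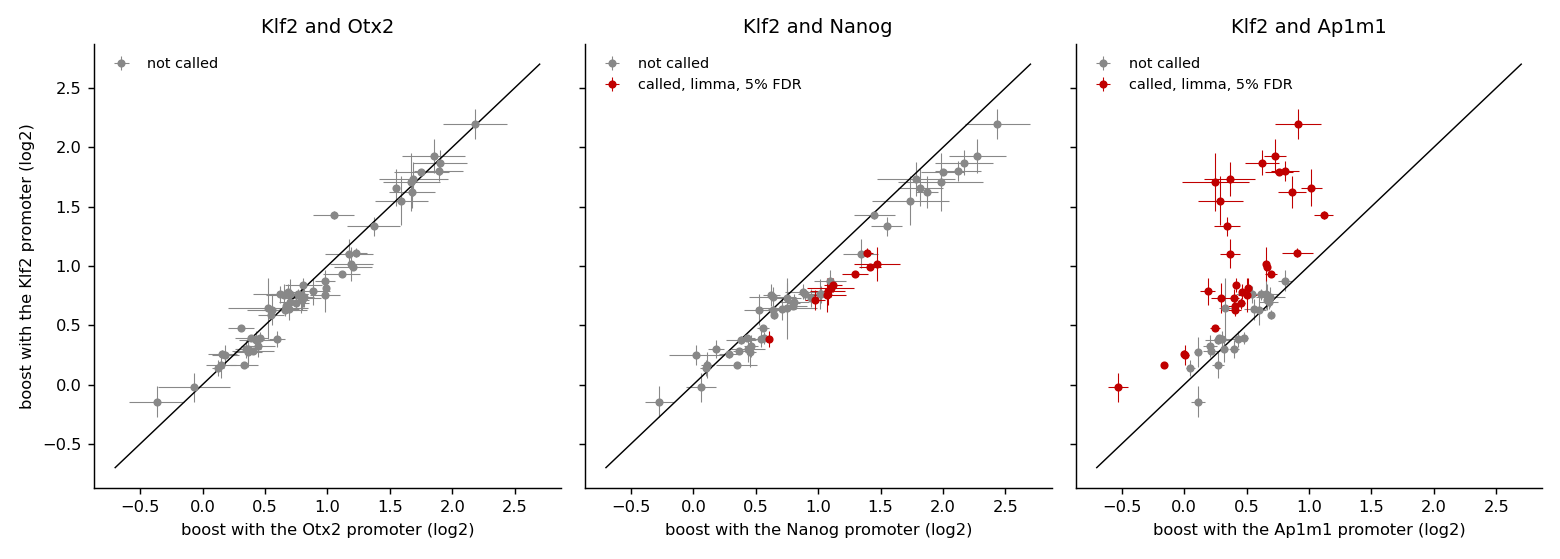
Single-enhancer boost index (log2 over controls) with the *Klf2* promoter (y axis) against that with *Otx2*, *Nanog* or *Ap1m1* (x axes) for 57 enhancers, mean and SD of 3 replicates, with the line of equality. Red points were called by limma at a 5% FDR: 0 with *Otx2*, 10 with *Nanog*, all below the line, and 32 with *Ap1m1*, all above it.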

How the data were processed

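Activities of the *Klf2* library were taken from the table deposited by the authors. Its values are a ratio made by the authors, of barcode counts in cDNA over plasmid DNA, each normalised to its sample's total and averaged over the barcodes of a combination, with a column for each replicate and both sequencing runs joined. The submitters' processing notes name Bowtie2 and mm10. The table also holds the authors' own boost indices and expected activities, which were not used, and the baseline was recalculated as the median of the CC combinations above 0.

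Fits were run in limma 3.58.1 under R 4.3.3, and all other steps in scipy 1.17.1 and pandas 2.3.3 under Python 3.11.15, with figures by matplotlib 3.10.9. Single enhancers were compared with CC combinations by an exact rank-sum test on the geometric mean of the replicates (1% FDR over 451 enhancer-promoter pairs). Positions, orientations and deviations from additivity were tested by limma in each library, and promoters by limma over the 12 columns of 4 libraries, with Benjamini-Hochberg adjustment at 5% over all rows. The rank-sum test against controls, the limma fits of additivity and of positions, and the contrast with *Nanog* were tested on simulated data. The other calculations were not. The simulated noise was independent between replicates, without differences between constructs that persist in all transfections. Deviations of same-numbered replicates of *Klf2* and another library had correlations of 0.42, 0.74 and 0.50 for *Nanog* and 0.36, 0.48 and 0.19 for *Ap1m1*. For *Otx2* they were 0.53, 0.59 and -0.06. Values for differently numbered replicates are not given for comparison, so these correlations cannot show whether replicates of different libraries are paired. The main fit between promoters had no replicate block, which was run as an alternative. Replicates are numbered as in the sample titles.

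The members, named enhancers, motifs and tests were chosen with earlier results of these data known. Named in the text are the enhancers of the *Klf2* locus, the 5 highest and 5 lowest single enhancers, those not called, the 3 largest differences between promoters, positions and orientations, the 3 highest and 3 lowest deviations and pairs, and the 2 highest and 2 lowest controls. Strong pairs, enhancers of special interest in the text and overlapping fragments were added after their values were seen. Enhancer sequences were not used here beyond their primers.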

Additional observations from a re-analysis of the deposited data

Results flagged for a closer look

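The enhancers that differed between the *Klf2* promoter and another promoter are listed for a closer look, because the difference between the libraries itself passed the limma test. These were 10 enhancers for *Nanog* and 32 for *Ap1m1*. For *Nanog* the named differences were -0.45 for Tbx3_E208, -0.42 for Tbx3_E209 and -0.37 for Sox2_E182. For *Ap1m1* they were 1.46 for Sox2_E180, 1.37 for Nodal_E159 and 1.29 for Pou5f1_E081 (log2 units, *Klf2* minus the other promoter, n = 3 replicates each). Baselines also differed between these libraries, with median CC activities of 0.293 to 0.372 for *Nanog*, 0.372 to 0.435 for *Klf2* and 0.535 to 0.630 for *Ap1m1*, and their part in the differences was not tested. No group had enough samples to look for single outlying ones.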

How the results depend on the processing

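The number of enhancers higher than controls was between 50 and 55 under all 9 alternatives run. Lower than controls were 1 without replicate 3 and 2 in position 2 only. EC exceeded CC by 0.89 with means of log2 values and by 0.76 with each enhancer counted once, against 0.79; without 1 replicate it was 0.78 to 0.80. EE exceeded EC by 0.55 to 0.64 under every alternative, and by 0.57 to 0.63 without 1 replicate. The median log2 over the expectation moved only with the multiplicative one (-0.25) and was -0.02 to 0.00 without 1 replicate. EE combinations above the additive expectation numbered 0 to 792 without 1 replicate, 556 beyond 1 propagated SD, 272 at 0.5 log2 units or more and 828 by position and orientation. Those below numbered 0 to 1207, 906, 767 and 1175.

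With a replicate block, 1 enhancer differed between *Klf2* and *Otx2*, 14 between *Klf2* and *Nanog* (the same 10 among them) and 34 between *Klf2* and *Ap1m1* (33 higher, with all 32 kept, and 1 lower). Scaled by the SD, 1, 0 and 36 differed, and with medians subtracted 4, 8 and 37. Without 1 replicate, 0 to 0 differed from *Otx2*, whose median difference turned to 0.04 without replicate 3, 0 to 2 from *Nanog* and 19 to 30 from *Ap1m1*. Positions gave 23 to 33 enhancers without 1 replicate, 1 at 0.5 log2 units or more and 24 by the rank-sum test over combinations. Orientations gave 23 to 29 without 1 replicate and 5 at 0.5 log2 units or more. The cause of these changes was not tested. Depth per combination beyond the authors' minimum is unknown, so the counting error of a single activity cannot be given.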
